A study of Rattus norvegicus with 9 samples.

Results

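Cyclins, cyclin-dependent kinases (CDKs), CDK inhibitors, E2F transcription factors and minichromosome maintenance (MCM) proteins were examined in the hypothalamus of female rats passing through puberty. Members were the probe sets whose single platform symbol starts with Ccna to Ccne, Ccng, Ccnh, Ccni, Ccnk, Ccnl, Ccnt or Cdk, or with E2f or Mcm and a digit. Genes named Cdkl, Cdkal or Cdk5rap were left out. This gave 106 of 31042 probe sets, for 68 of 14217 genes with a symbol. The rule reads symbols and no measured value. The choice takes in a few genes that are no cyclin, CDK or MCM subunit, such as Ccndbp1, Cdk2ap1, Cdk2ap2, Cdkn2aip and Mcm3ap.

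The arrays fall into 3 stages of normal development, with no treatment or genetic change in any of them. Juvenile animals of 26 days, which served as controls, are replicates 1, 2 and 3. Early pubertal animals of 29 days are replicates 7, 8 and 10, and late pubertal animals of 31 days are replicates 12, 14 and 20. Each of the 9 arrays holds the hypothalamus of 1 female rat, so n = 3 per stage counts animals. Strain is not given in the sources used here.

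In a dividing cell, D cyclins switch on CDK4 and CDK6, which phosphorylate the retinoblastoma protein and free E2F factors. E2F factors switch on genes for DNA replication, among them those of the MCM helicase, and cyclins A, B and E with CDK1 and CDK2 then carry the cell through DNA synthesis and mitosis. Most hypothalamic neurons have left the cycle by this age and keep inhibitors such as Cdkn1b and Cdkn2d, and several kinases of the family act elsewhere, in transcription or, for Cdk5, in postmitotic neurons.

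The median deposited signal per array ran from 79.8 to 122, and normalized arrays correlated at r = 0.967 to 0.979 across probe sets. Of 12 markers of the hypothalamus, 10 passed the signal filter described next, with mean log2 levels of 12.72 for Pmch, 11.80 for Avp, 11.77 for Oxt and 10.25 for Hcrt. Otp and Sim1 lay below the filter. Marker scores, the mean log2 deviation of a list from its average over all arrays, differed between stages for microglia, at −0.01 to 0.14 in juvenile, 0.03 to 0.04 in early and −0.15 to −0.09 in late pubertal animals, where all 9 tested probe sets of that list lay below their juvenile mean. Leptomeningeal scores ran from −0.25 to 0.06, −0.16 to 0.36 and 0 to 0.24 in the same order. Of 9 tested leptomeningeal probe sets, 8 were higher than in juvenile animals in each pubertal stage (medians 0.13 in early and 0.25 in late puberty). Oligodendrocyte precursor scores ran from −0.09 to 0.16, −0.10 to 0.14 and −0.06 to 0. Neuron scores ran from −0.05 to 0.17, −0.16 to 0.11 and −0.10 to 0, with 9 of 10 tested probe sets lower in late pubertal than in juvenile animals (median −0.12). Astrocyte scores ran from −0.25 to 0.09, −0.13 to 0.22 and −0.11 to 0.02. Of 13 tested astrocyte probe sets, 8 were higher than in juvenile animals in early (median 0.16) and 7 in late puberty (median 0.01). The part of these cell types in the values below was not tested. In bulk tissue, fewer cells of a type cannot be told apart from less RNA per cell.

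Levels are log2(signal + 16) after quantile normalization between arrays, and differences between stages are on that scale. Probe sets were tested if their 9-array mean exceeded the 40th percentile, a log2 level of 6.30. That level was passed by 74 member probe sets of 57 genes among 18625 in all. Each difference is given with the standard error (SE) of a limma fit and its two-sided Benjamini-Hochberg adjusted p over all 18625 probe sets, called at 0.05. No member passed in any comparison. The smallest limma adjusted p of a member was 0.914, and no probe set of the whole table was called between any stages (0%).

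Members differed little between juvenile and early pubertal animals. Their median log2 difference was −0.02, with 34 higher and 40 lower. The median over all tested probe sets was 0. Quartiles were −0.11 and 0.07 for members and −0.10 and 0.10 for all tested probe sets. By limma, 4 of 74 member probe sets had an unadjusted p under 0.05, or 5.41% beside a background of 4.46%. They were 1 higher and 3 lower, where 1.92% and 2.54% of all tested probe sets were. The count of 4 was 2 without juvenile replicate 1, 2 without juvenile replicate 2 and 1 without juvenile replicate 3, where the shares of all tested probe sets were 4.64%, 4.62% and 3.89%. Values of the stages did not overlap for 4 member probe sets (background 8.30%), and for 9 to 13 without any single juvenile or early pubertal array (15.4% to 21.7% of all tested probe sets), since fewer arrays overlap less often. At the deposited level, where early pubertal arrays are dimmer and the median of all tested probe sets is −0.24, 2 members were higher and 72 lower, with a member median of −0.25. With each array centred on its median, 26 were higher and 48 lower.

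Late pubertal animals were also close to juvenile ones across the members. The median member difference was 0.01, with 40 probe sets higher and 34 lower, and the quartiles were −0.09 and 0.10. By limma, 2 of 74 member probe sets had an unadjusted p under 0.05, or 2.70% beside a background of 4.14%. Both were lower, where 2.23% of all tested probe sets were higher and 1.92% lower. The count of 2 was 8 without juvenile replicate 2 (8.52% of all tested probe sets), and 1 without juvenile replicate 1, juvenile replicate 3 or late pubertal replicate 20 (3.17%, 3.07% and 3.06%). Values of the stages did not overlap for 7 member probe sets (background 11.4%), and for 11 to 22 without any single juvenile or late pubertal array (18.7% to 32.8% of all tested probe sets), the highest without juvenile replicate 2. No member differed by more than 0.5 on the log2 scale in this comparison.

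Between early and late pubertal animals, the median member difference was 0.01, with 39 probe sets higher and 35 lower in late puberty. By limma, 3 of 74 had an unadjusted p under 0.05, or 4.05% beside a background of 5.21%, and 6 without early pubertal replicate 7 (7.58% of all tested probe sets). They were 1 higher and 2 lower, beside 2.94% and 2.27% of all tested probe sets. Values of the stages did not overlap for 10 member probe sets (background 11.3%), and for 15 to 21 without any single early or late pubertal array (17.4% to 27.8% of all tested probe sets). At the deposited level 69 members were higher and 5 lower, where the median of all tested probe sets is 0.22 and that of the members 0.24. A limma F test over the 3 stages called 0 members, with 3 at an unadjusted p under 0.05 (4.05%, beside 4.22% of all tested probe sets). These comparisons share arrays: both differences from juvenile animals use the same juvenile arrays.

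**Figure D1:**
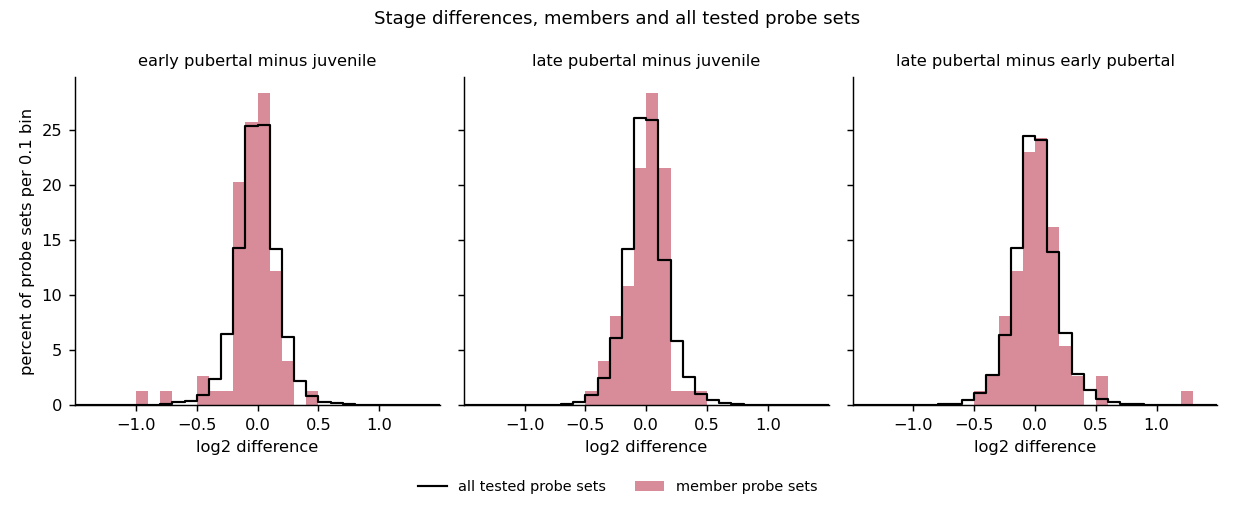
Log2 differences between stages in bins of 0.1 (x axis) as the percent of probe sets per bin (y axis), for the 74 member probe sets (bars) and all 18625 tested probe sets (line). Both distributions centre near 0 in each comparison, and a few members lie apart, the farthest at −0.91 and 1.26.

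For most members the intervals left room for small differences. The median SE of a member difference was 0.14 log2, beside 0.15 for all tested probe sets, and the median residual SD between animals of a stage was 0.17 for both. The 95% interval lay within 1.5-fold in either direction for 61 of 74 member probe sets from juvenile to early pubertal, 57 from juvenile to late pubertal and 58 from early to late pubertal animals. It lay within 2-fold for 72, 72 and 70. For all tested probe sets the 1.5-fold shares were 76.7%, 76.4% and 74.9%, beside 82.4%, 77.0% and 78.4% of members.

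The D cyclins, which couple outside signals to entry into the cycle, had 5 tested probe sets for 3 genes. Cyclin D1 (Ccnd1) had levels of 7.97, 8.0 and 7.91 in the juvenile, 7.64, 7.49 and 7.74 in the early pubertal and 8.02, 7.72 and 7.71 in the late pubertal animals on probe set 1371150_at. All early pubertal values lay below all juvenile ones there, and late pubertal values overlapped both groups. The difference of early pubertal from juvenile animals was −0.34 ± 0.13 (SE, n = 3 per stage; limma adjusted p = 0.994). The other Ccnd1 probe sets gave −0.13 ± 0.12 and 0.05 ± 0.18, so the value was not shared by all probe sets of the gene.

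Cyclin D2 (Ccnd2) had levels of 9.38, 9.12 and 9.35 in juvenile, 8.03, 9.36 and 9.19 in early pubertal and 9.32, 9.46 and 9.42 in late pubertal animals. Early pubertal replicate 7 stood apart from the other 8 arrays. The early pubertal difference from juvenile of −0.43 ± 0.26 (limma adjusted p = 0.994) became −0.01 without that array, and the late minus early difference of 0.54 ± 0.26 (adjusted p = 0.914) became 0.12. Cyclin D3 (Ccnd3) had levels of 8.44, 8.17 and 8.50, then 8.58, 8.58 and 8.51, then 8.42, 8.45 and 8.36, juvenile first and late pubertal last. Early pubertal values lay above those of both other stages, by 0.19 ± 0.11 over juvenile animals (limma adjusted p = 0.994), or 0.09 without juvenile replicate 2. At the deposited level the difference was −0.07, beside the lower level of all probe sets. Cdk4, a kinase partner of the D cyclins, had differences of 0.07 ± 0.11, −0.06 ± 0.11 and −0.14 ± 0.11 for early minus juvenile, late minus juvenile and late minus early, the order kept in the lists of 3 values below. Cdk6, the other partner, lay below the filter.

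**Figure D2:**
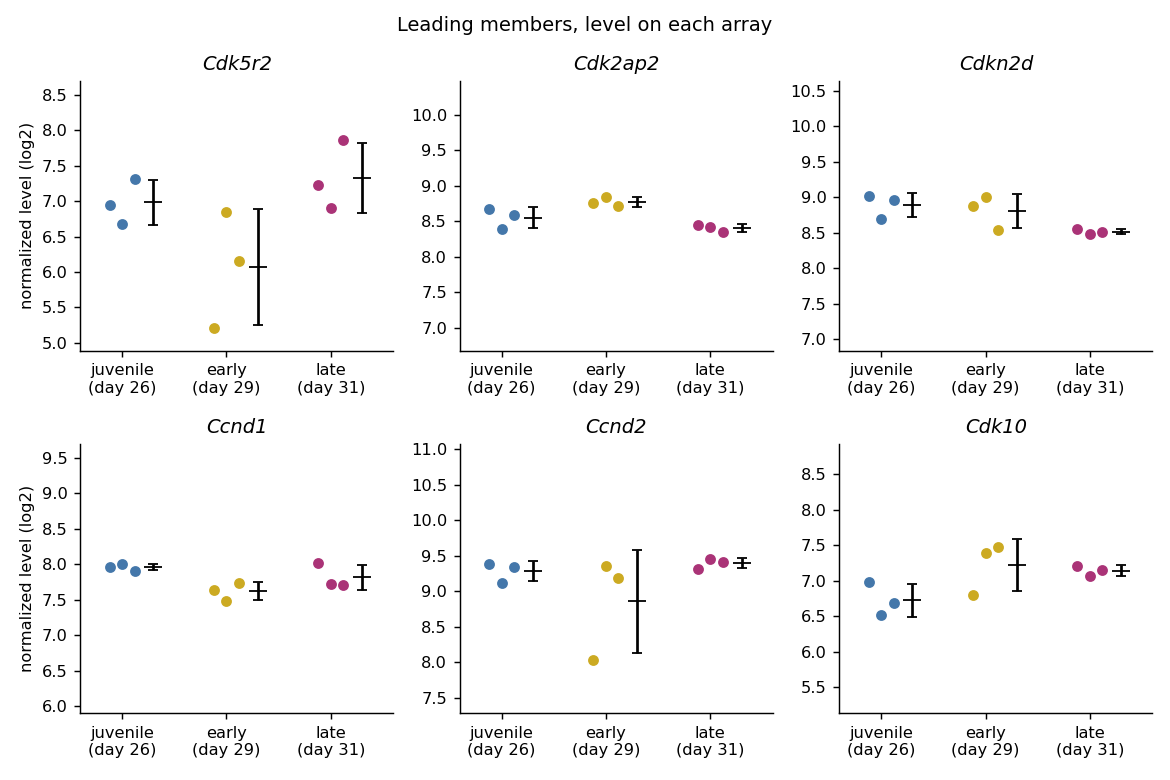
Normalized log2 level (y axis, of equal length in each panel) of 1 probe set of 6 members on each array, by stage (x axis), with the mean and SD of the 3 animals beside the points. Cdk5r2 is lowest in early puberty with wide spread, Ccnd2 has a single low early pubertal array, and late pubertal Cdkn2d and Cdk2ap2 sit in narrow ranges.

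Inhibitors of the Ink4 family bind CDK4 and CDK6. Cdkn2d, the member of that family found in mature neurons, had levels of 9.01, 8.69 and 8.96 in juvenile, 8.88, 9.0 and 8.54 in early pubertal and 8.55, 8.48 and 8.51 in late pubertal animals on probe set 1384488_at. Every late pubertal value lay below every juvenile value, and early pubertal replicate 10 lay within the late pubertal range. The late minus juvenile difference was −0.37 ± 0.13, a ratio of 0.773, with the smallest unadjusted limma p of the members in that comparison (adjusted p = 0.9998). The second Cdkn2d probe set gave −0.26 ± 0.17, and both probe sets were also lower in late than in early puberty, by −0.29 ± 0.13 and −0.20 ± 0.17. Cdkn2c differed by 0.14 ± 0.21, 0.01 ± 0.21 and −0.13 ± 0.21, and Cdkn2a and Cdkn2b lay below the filter.

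Cip/Kip inhibitors block a wider set of cyclin and CDK complexes. Cdkn1b, which holds cells out of the cycle, differed by 0.11 ± 0.10, −0.04 ± 0.10 and −0.15 ± 0.10, with 95% intervals from −0.11 to 0.32, −0.26 to 0.17 and −0.36 to 0.06. Without late pubertal replicate 12 or 20 the last difference was −0.09 or −0.25. At the deposited level its late minus early difference was 0.05, the opposite sign, below the 0.22 median of all probe sets. Cdkn1c, an imprinted inhibitor, had levels of 10.30, 10.69 and 10.33 in juvenile and 10.56, 10.64 and 10.58 in late pubertal animals, which overlap, and differed by 0.15 ± 0.11 between them, or by 0.08 without juvenile replicate 1 and 0.28 without juvenile replicate 2. Cdkn1a, which stress and glucocorticoids can induce, differed by 0.10 ± 0.19, 0.11 ± 0.19 and 0.01 ± 0.19. The 95% interval of its late minus juvenile difference ran from −0.30 to 0.53. A second Cdkn1a probe set lay below the filter, at a mean log2 level of 4.95. Fitted without the filter, it gave 0.27 ± 0.34, −0.61 ± 0.34 and −0.87 ± 0.34. Its late pubertal values overlapped neither the juvenile nor the early pubertal ones (limma adjusted p = 0.9996 and 0.9213).

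Cdkn2aip, which encodes a partner of the ARF tumor suppressor, had levels of 6.99, 6.64 and 6.67 in juvenile and 6.68, 5.11 and 6.20 in early pubertal animals on probe set 1383617_at. Early pubertal replicate 8 was the lowest of these, and replicate 7 lay within the juvenile range. The difference was −0.77 ± 0.34 (limma adjusted p = 0.994), or −0.33 without early pubertal replicate 8. The early pubertal mean of 6.0 lies under the 6.30 of the filter, so the probe set passed through its other stages, and the value moved with the constant added before the log, from −1.02 with 1 to −0.45 with 64. The second Cdkn2aip probe set gave −0.10 ± 0.20. Cdkn2aipnl, a related RNA-binding gene, gave 0.02 ± 0.12 on its brighter probe set in the same comparison.

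**Figure D3:**
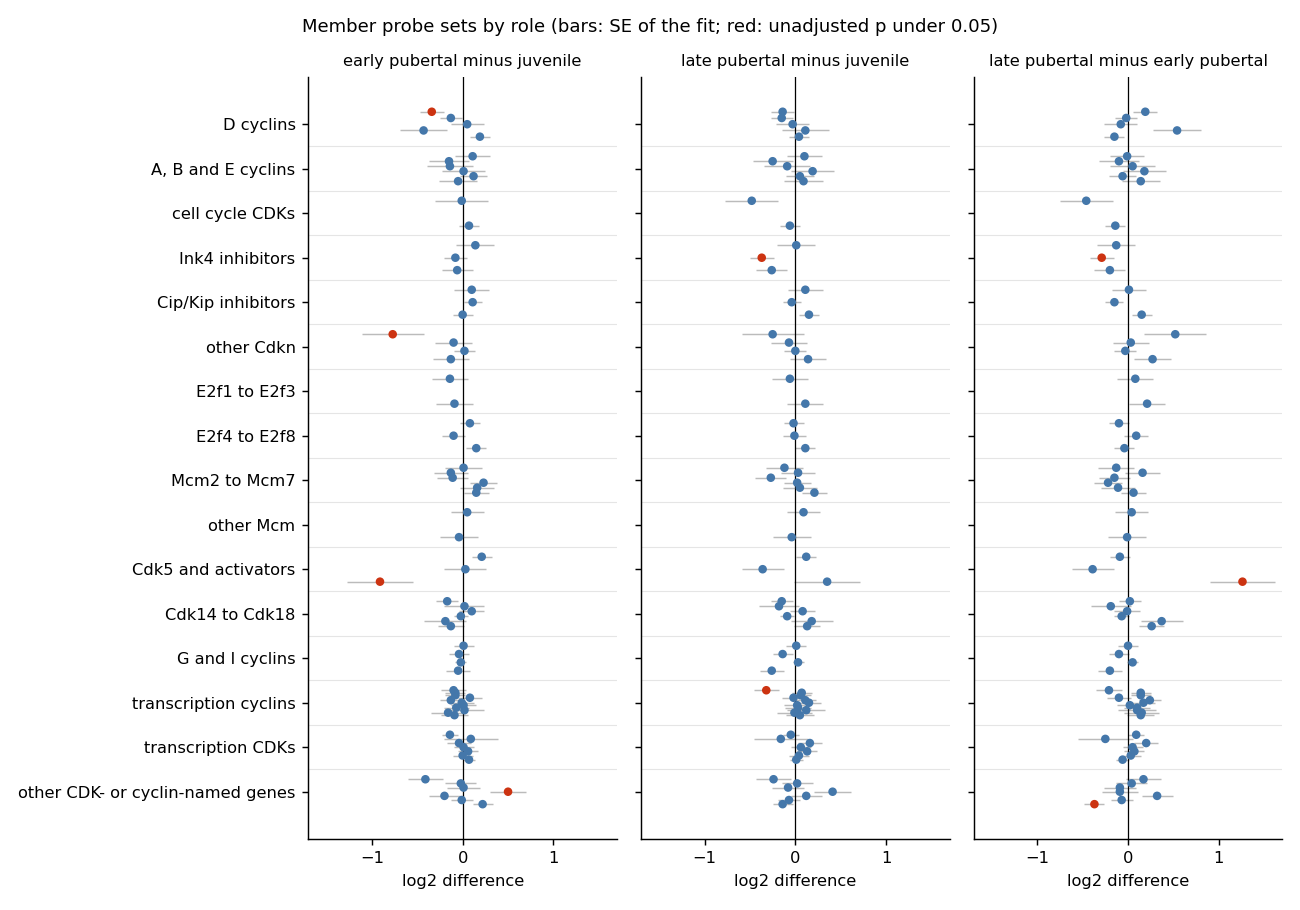
Log2 difference (x axis) of each tested member probe set by role (rows) for the 3 comparisons, with the SE of the fit as bars and red points for an unadjusted limma p under 0.05. Points of most roles scatter to both sides of 0, and the 9 red points, 4, 2 and 3 by comparison, fall in 6 roles.

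E2F factors carry the signal from D cyclins to the genome. E2f1 and E2f2, which activate transcription, differed by −0.14 ± 0.20 and −0.09 ± 0.20 in early pubertal and by −0.06 ± 0.20 and 0.11 ± 0.20 in late pubertal animals relative to juvenile ones. Among the later members, E2f6, a repressor that works with polycomb proteins, differed by 0.15 ± 0.11, 0.11 ± 0.11 and −0.04 ± 0.11. Its early pubertal difference was 0.08 without juvenile replicate 1 and −0.11 at the deposited level. E2f4 and E2f5, which pair with pocket proteins in resting cells, stayed within −0.10 to 0.09 in all 3 comparisons. E2f7 and E2f8 lay below the filter, and no E2F gene had an unadjusted limma p under 0.05 among tested probe sets.

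Genes of the MCM helicase are classic targets of E2F, and their promoters are shown because they carry a sequence feature that the choice by symbol did not use. RefSeq promoter windows, 250 bases before to 50 after the start, were given for 52 of the 68 member genes. The E2F letters TTTCCCGC, TTTCGCGC, TTTGCCGC and TTTGGCGC, searched on both strands, occurred in 7 of these 52 windows (13.5%) and in 618 of all 27457 windows (2.25%). All 5 windows of Mcm2 to Mcm7 held them, those of Mcm2, Mcm3, Mcm5, Mcm6 and Mcm7, and no window was given for Mcm4. The other 2 were those of Cdk1 and Mcm8. CCAAT occurred in 53.8% of member windows and 37.7% of all windows, and the letters TTTGAA and TTCGAA in 19.2% and 19.5%.

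The 250 bases before the start of 4 helicase genes, in build GRCr8, read 5′ to 3′ along the gene with the E2F letters of either strand in capitals. Mcm2 lies at chr4:122918095-122918344 on the minus strand, Mcm5 at chr19:13488563-13488812 on the plus strand, Mcm6 at chr13:42404353-42404602 on the minus strand and Mcm7 at chr12:22163179-22163428 on the minus strand.
Mcm2: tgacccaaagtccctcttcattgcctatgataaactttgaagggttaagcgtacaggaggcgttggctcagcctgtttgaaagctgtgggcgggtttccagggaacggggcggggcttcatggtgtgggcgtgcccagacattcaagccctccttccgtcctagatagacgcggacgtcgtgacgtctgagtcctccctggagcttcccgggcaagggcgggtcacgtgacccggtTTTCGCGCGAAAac
Mcm5: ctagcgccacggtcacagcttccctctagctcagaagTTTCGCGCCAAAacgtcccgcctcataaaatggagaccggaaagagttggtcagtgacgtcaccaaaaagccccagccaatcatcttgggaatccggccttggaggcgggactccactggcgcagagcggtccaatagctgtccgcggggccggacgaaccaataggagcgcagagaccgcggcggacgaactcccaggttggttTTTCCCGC
Mcm6: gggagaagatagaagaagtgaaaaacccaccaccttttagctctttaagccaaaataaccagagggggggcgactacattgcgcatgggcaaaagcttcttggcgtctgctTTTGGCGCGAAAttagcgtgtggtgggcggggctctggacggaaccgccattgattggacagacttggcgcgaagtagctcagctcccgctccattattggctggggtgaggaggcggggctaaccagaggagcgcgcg
Mcm7: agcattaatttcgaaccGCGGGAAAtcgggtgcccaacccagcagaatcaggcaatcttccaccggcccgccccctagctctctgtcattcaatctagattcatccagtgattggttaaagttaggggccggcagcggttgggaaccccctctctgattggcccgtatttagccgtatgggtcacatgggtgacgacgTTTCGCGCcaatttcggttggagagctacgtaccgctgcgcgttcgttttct
In Mcm2, Mcm5 and Mcm6 a match on each strand overlaps the other by 4 bases, which joins them into 1 run of capitals. The matches begin 14 and 10 bases before the start in Mcm2, 213, 209 and 8 bases before it in Mcm5, 139 and 135 in Mcm6, and 233 and 52 in Mcm7. A match describes letters in this window and was not tested for binding.

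The 6 helicase genes, Mcm4 without a given window among them, did not share a direction. In early pubertal animals 4 of the 6 stood higher and 2 lower than in juvenile ones. The lower 2 were Mcm3, whose window, not printed above, also held E2F letters, at −0.13 ± 0.19, and Mcm4 at −0.11 ± 0.17. The early pubertal mean of Mcm3, 6.24, lay under the level of the filter. The median of the 6 genes was 0.08, with a range from −0.13 to 0.23, and Mcm2 differed by 0.01. Without juvenile replicate 1 or early pubertal replicate 7, 3 genes were higher and 3 lower. In late pubertal animals the median was 0.02, with 4 higher and 2 lower, from −0.27 to 0.21, and 3 and 3 without any single juvenile or late pubertal array. Mcm5 had levels of 6.52, 6.58 and 6.48 in juvenile, 6.83, 6.78 and 6.67 in early pubertal and 6.51, 6.59 and 6.53 in late pubertal animals. Its early pubertal values lay above all others, by 0.23 ± 0.15 over juvenile animals (limma adjusted p = 0.994) and with −0.22 ± 0.15 for late minus early. Its own residual SD was 0.06, and limma moderates that spread toward probe sets of like level, which raises the SE.

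Mcm7 had levels of 7.90, 7.86 and 7.75 in juvenile, 7.72, 8.09 and 8.16 in early pubertal and 7.97, 8.21 and 7.96 in late pubertal animals. Late pubertal values lay above juvenile ones, by 0.21 ± 0.14 (limma adjusted p = 0.9998) or 0.13 without late pubertal replicate 14, and early pubertal values spanned both. Mcm4 had levels of 7.37, 7.0 and 7.56 in juvenile and 7.03, 7.08 and 7.02 in late pubertal animals, which overlap, with a difference of −0.27 ± 0.17, or −0.42 without juvenile replicate 2 and −0.14 without juvenile replicate 3. Mcm2, Mcm3 and Mcm6 gave −0.12 ± 0.20, 0.03 ± 0.19 and 0.05 ± 0.19 for the same stages. Mcm3ap, an mRNA export factor that binds MCM3, and Mcm9, a helicase of DNA repair, gave 0.09 ± 0.18 and −0.04 ± 0.21.

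Cyclins A, B and E and their kinases act in DNA synthesis and mitosis. Their tested probe sets had mean log2 levels from 6.34 for Ccnb2, near the filter, to 7.36 for Ccne2, and Ccna2 and Cdk2 lay below the filter. The early pubertal mean of Ccnb2, 6.28, lay under the level of the filter. Cdk1, the mitotic kinase, had levels of 6.62, 6.71 and 6.40 in juvenile, 6.85, 5.88 and 6.97 in early pubertal and 5.65, 6.26 and 6.40 in late pubertal animals. Its late pubertal values reached no higher than the lowest juvenile value, and late pubertal replicate 12 was the lowest array. The late pubertal mean of 6.1 lay under the level of the filter, so the Cdk1 probe set passed through its other stages. The late minus juvenile difference was −0.48 ± 0.29 (limma adjusted p = 0.9998), or −0.25 without late pubertal replicate 12, and late minus early was −0.46 ± 0.29, or −0.24 without late pubertal replicate 12, −0.26 without early pubertal replicate 10 and −0.81 without early pubertal replicate 8. Ccnb1 and Ccnb2, the cyclin partners of Cdk1, gave −0.25 ± 0.22 and −0.09 ± 0.25 for late minus juvenile. The brighter Ccne2 probe set gave 0.12 ± 0.15, 0.05 ± 0.15 and −0.06 ± 0.15, and Ccne1 and Ccna1 gave 0.19 ± 0.24 and 0.10 ± 0.19 for late minus juvenile animals. Of the 6 tested probe sets of this group, 3 were higher and 3 lower in early puberty, and 4 were higher and 2 lower in late puberty, relative to juvenile animals.

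Cdk5 is a kinase of postmitotic neurons that needs the activators encoded by Cdk5r1 and Cdk5r2. Cdk5r2 had levels of 6.95, 6.68 and 7.31 in juvenile, 5.21, 6.84 and 6.15 in early pubertal and 7.22, 6.90 and 7.86 in late pubertal animals. Late pubertal values lay above all early pubertal ones, though early pubertal replicate 8, at 6.84, came close to late pubertal replicate 14, at 6.90, and overlapped the juvenile range. The late minus early difference was 1.26 ± 0.36 (SE, n = 3 per stage; limma adjusted p = 0.914). The early minus juvenile difference was −0.91 ± 0.36 (limma adjusted p = 0.994). Without early pubertal replicate 7 these differences were 0.84 and −0.48.

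Cdk5r2 was the sole member called under any alternative. At the deposited level its late minus early difference was 1.49 with a limma adjusted p of 0.0293, beside a median of 0.22 over all tested probe sets. Over the other alternatives that adjusted p ran from 0.63 to 0.999. Its early pubertal mean of 6.07 lies under the 6.30 of the filter, so the low side is dim and the probe set passed through its other stages. The size moved with the constant added before the log, with 1.55 for a constant of 1 and 0.83 for 64 in late minus early, and −1.16 and −0.56 in early minus juvenile. Below the filter lay 2 further Cdk5r2 probe sets, at mean log2 levels of 4.59 and 4.6. Fitted without the filter, these gave −0.18 ± 0.15 and −0.04 ± 0.16 for late minus early. Cdk5r1 had levels of 7.40, 6.78 and 7.58 in juvenile, 7.0, 7.42 and 7.43 in early pubertal and 7.17, 6.59 and 6.90 in late pubertal animals. Its stages overlapped, and the late minus early difference was −0.39 ± 0.23, or −0.25 without late pubertal replicate 14, opposite in sign to that of Cdk5r2. Cdk5 itself differed by 0.21 ± 0.11, 0.12 ± 0.11 and −0.09 ± 0.11. Its early pubertal difference was −0.05 at the deposited level.

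Kinases of the Cdk14 to Cdk18 group act largely outside the cycle. Cdk18 was the gene of this group whose tested probe sets shared a sign in every comparison, with 0.26 ± 0.14 and 0.37 ± 0.23 for late minus early and −0.13 ± 0.14 and −0.19 ± 0.23 for early minus juvenile. On its probe set 1386817_at the levels were 8.13, 7.92 and 8.17 in early and 8.42, 8.35 and 8.22 in late pubertal animals, which do not overlap (limma adjusted p = 0.914). Juvenile levels of 8.47, 8.02 and 8.11 spanned both. Cdk17 differed by −0.02 ± 0.08, −0.09 ± 0.08 and −0.07 ± 0.08, with all 95% intervals between −0.27 and 0.15. Cdk16 differed by 0.10 ± 0.14, 0.08 ± 0.14 and −0.01 ± 0.14, and Cdk14 by −0.17 ± 0.12 and 0.02 ± 0.22 on its probe sets for early minus juvenile.

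Cyclins C, H, K, L and T and kinases such as Cdk7, Cdk8 and Cdk9 serve RNA polymerase II. Cyclin C (Ccnc), a part of the Mediator kinase module, had levels of 8.49, 8.16 and 8.62 in juvenile, 8.31, 8.50 and 8.15 in early pubertal and 8.15, 8.01 and 8.16 in late pubertal animals on probe set 1389101_at. Late pubertal values lay just below the juvenile range, whose lowest value was 8.16 like the highest late pubertal one at 2 decimals. The late minus juvenile difference was −0.32 ± 0.14 (limma adjusted p = 0.9998), while the second Ccnc probe set gave 0.07 ± 0.11. Its kinase partners Cdk8 and Cdk19 gave 0.04 ± 0.11 and 0.06 ± 0.11.

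Ccnl1, a cyclin linked to splicing, had levels of 7.87, 7.90 and 8.01 in early and 8.16, 8.16 and 8.17 in late pubertal animals, a difference of 0.24 ± 0.12 (limma adjusted p = 0.914). Those stages did not overlap, and juvenile levels of 7.91, 8.23 and 8.03 spanned both. The brightest probe set of the related Ccnl2 gave 0.17 ± 0.13 and its others 0.02 ± 0.14 and 0.10 ± 0.14. The late minus juvenile difference of that brightest probe set was 0.15 ± 0.13, or 0.01 without juvenile replicate 1 and 0.32 without juvenile replicate 2. Transcription cyclins had 11 tested probe sets for 6 genes. Of these probe sets 3 were higher and 8 lower in early puberty than in juvenile animals (median −0.08). Without juvenile replicate 2 they were 5 and 6 (median −0.02). In late pubertal relative to juvenile animals 8 were higher and 3 lower (median 0.05), or 6 and 5 without juvenile replicate 3. From early to late puberty 9 were higher and 2 lower (median 0.14), where 50.1% of all tested probe sets were higher. The median deviation of these probe sets from their 9-array means was −0.03, 0.04 and −0.12 on early pubertal replicates 7, 8 and 10. On late pubertal replicates 12, 14 and 20 it was 0.04, 0.03 and 0.07, so these stages overlapped for the group. No probe set of this group passed the test.

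The 7 tested probe sets of transcription kinases lay between −0.14 and 0.09 in early pubertal relative to juvenile animals. Cdk9, which releases paused polymerase, differed by 0.07 ± 0.07, 0.01 ± 0.07 and −0.06 ± 0.07, with 95% intervals from −0.09 to 0.24, −0.15 to 0.18 and −0.22 to 0.10. Cdk7, the CDK-activating kinase, had levels of 8.18, 8.21 and 8.19 in juvenile and 8.27, 8.32 and 8.37 in late pubertal animals, which do not overlap, and differed by 0.13 ± 0.11 (limma adjusted p = 0.9998). Cdk11b differed by −0.14 ± 0.09 in early pubertal animals. Cdk13 gave 0.16 ± 0.13 for late minus juvenile and 0.20 ± 0.13 for late minus early on probe set 1398574_a_at, or 0.07 and 0.11 without late pubertal replicate 20, and −0.16 ± 0.30 and −0.25 ± 0.30 on its other. Cdk12 lay below the filter.

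Cyclins G and I have no settled kinase role in division. Ccni gave −0.02 ± 0.06, 0.03 ± 0.06 and 0.05 ± 0.06 on probe set 1388370_at, whose 95% intervals stayed between −0.14 and 0.17, the narrowest of any member. Its second probe set gave −0.26 ± 0.13 for late minus juvenile and −0.20 ± 0.13 for late minus early, which became −0.12 without late pubertal replicate 12 and turned to 0.03 at the deposited level. Ccng1, a target of p53, differed by 0.01 ± 0.11 from juvenile animals in both pubertal stages, and Ccng2, a cyclin of resting cells, by −0.04 ± 0.11 and −0.14 ± 0.11.

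Among the remaining genes with CDK or cyclin names, Cdk2ap2, which encodes a small binding partner of CDK2, had levels of 8.68, 8.39 and 8.59 in juvenile, 8.76, 8.85 and 8.71 in early pubertal and 8.45, 8.42 and 8.35 in late pubertal animals. Early pubertal values lay above those of both other stages. The late minus early difference was −0.37 ± 0.11, a ratio of 0.776 (limma adjusted p = 0.914), and early minus juvenile was 0.22 ± 0.11, or 0.14 without juvenile replicate 2. The first was −0.13 and the second −0.04 at the deposited level, the latter with its sign turned. The related Cdk2ap1 gave −0.01 ± 0.12 and −0.07 ± 0.12 for early and late pubertal minus juvenile.

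Cdk10, a kinase with a role in development, had levels of 6.98, 6.52 and 6.68 in juvenile, 6.80, 7.39 and 7.48 in early pubertal and 7.21, 7.06 and 7.15 in late pubertal animals on probe set 1395122_s_at. Late pubertal values lay above juvenile ones, and early pubertal replicate 7 fell inside the juvenile range. The differences from juvenile were 0.50 ± 0.20 (limma adjusted p = 0.994) and 0.41 ± 0.20 (adjusted p = 0.9998). The other Cdk10 probe sets gave −0.02 ± 0.17 and 0.01 ± 0.18 in early and 0.02 ± 0.17 and −0.08 ± 0.18 in late pubertal animals. The suffix _s marks a probe set whose probes may match more than 1 transcript. Ccndbp1, which binds D cyclins, had levels of 9.53, 9.29 and 9.63 in juvenile and 8.77, 8.99 and 9.45 in early pubertal animals and differed by −0.41 ± 0.19, or −0.26 without early pubertal replicate 7, with early pubertal replicate 10 inside the juvenile range. Cdk20 gave 0.32 ± 0.17 for late minus early, where the stages did not overlap.

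**Figure D4:**
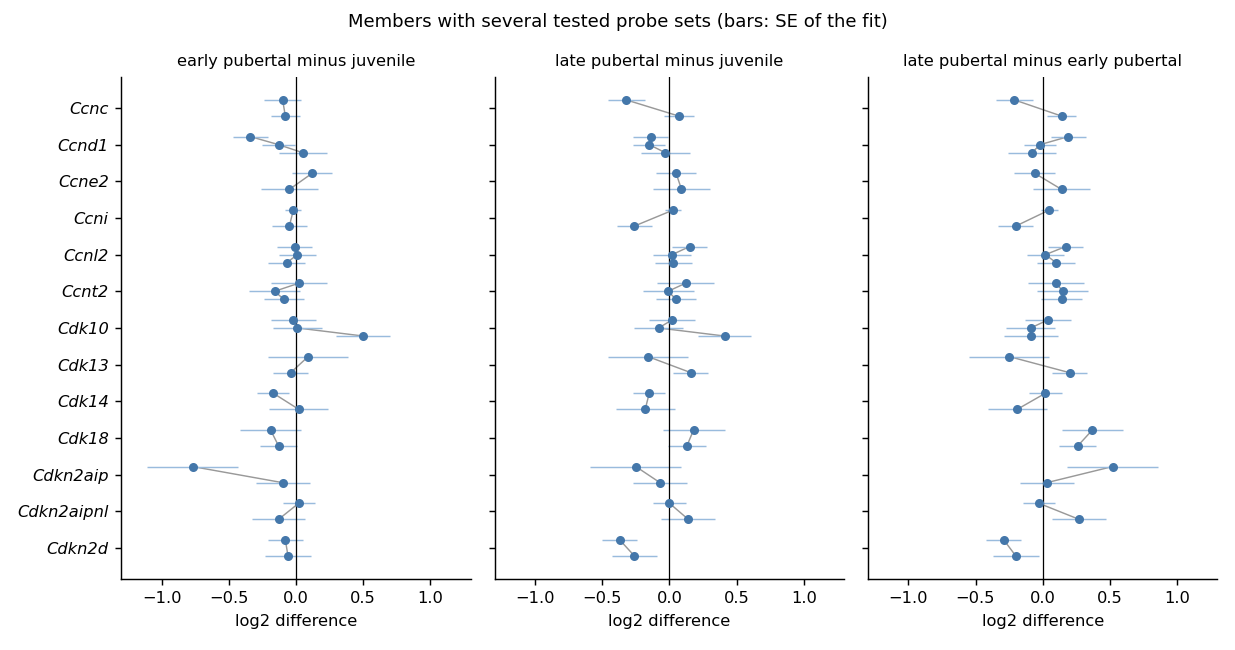
Log2 difference (x axis) of each tested probe set of the 13 members with more than 1, joined by a line within each gene (rows), with the SE of the fit as bars, for the 3 comparisons. Cdkn2d and Cdk18 keep the same sign on both probe sets throughout, and Cdk10, Ccnc and Cdk13 do not.

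Probe sets of 1 gene often went different ways. Of 13 member genes with several tested probe sets, all probe sets had the same sign for 5 in early minus juvenile, 7 in late minus juvenile and 5 in late minus early. Cdkn2d, Cdk18 and Cdkn2aip had the same sign on both probe sets in each of the 3 comparisons. No gene had probe sets that went opposite ways each with an unadjusted limma p under 0.05.

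The other 32 member probe sets lay below the filter, and 11 genes had no tested probe set. These were Ccna2, Cdk2, Cdk6, Cdk12, Cdkn2a, Cdkn2b, Cdkn3, E2f7, E2f8, Mcm8 and Mcm10. Their median deposited signals ran from 4.26 for Cdkn2a to 60.3 for Mcm10, and no detection calls were used, so their levels are dim and were not shown to be absent. Tested without the filter, 0 of these 32 probe sets passed limma's adjusted threshold, and 4, 2 and 2 had an unadjusted p under 0.05 in the order of the comparisons, or 12.5%, 6.25% and 6.25% beside 5.02%, 4.78% and 5.85% of all probe sets below the filter. Among them E2f7 gave 1.03 ± 0.31 and Cdk13 on another probe set −1.09 ± 0.31 for early minus juvenile, at mean log2 levels of 5.32 and 5.44.

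Other genes of the cell cycle were read beside the members. Of 70 further genes of replication, mitosis and the E2F pathway, 62 were on the array with a single symbol and 40 passed the filter, on 55 probe sets. None was called by limma in any comparison. An unadjusted p under 0.05 belonged to 1 probe set in early minus juvenile, Mybl2 at −0.53 ± 0.21, of 55 where the background is 4.46%. It belonged to 3 in late minus juvenile, Plk1 at 0.90 ± 0.33, the mitotic brake Wee1 at 0.44 ± 0.15 and Orc6 at −0.41 ± 0.17 (background 4.14%). In late minus early it belonged to 1, Pkmyt1 at 0.43 ± 0.18 (background 5.21%). Plk1 had a mean of 6.34, just over the filter, and dim juvenile levels of 5.81, 6.55 and 5.31, so it passed through its other stages. The second, brighter Wee1 probe set gave 0.07 ± 0.12 for late minus juvenile. The replication clamp Pcna gave −0.04 ± 0.11, 0.08 ± 0.11 and 0.12 ± 0.11, and Rb1, the target of the D cyclin kinases, −0.16 ± 0.11, −0.05 ± 0.11 and 0.11 ± 0.11. The medians of this list were 0, 0.03 and 0.02.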

How the data were processed

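Hypothalamic RNA of 9 female rats was hybridised to Affymetrix rat arrays, 1 array per animal. The deposited values are linear signal intensities per probe set, made by the authors with MAS5, per the submitters' processing notes; the sources used here do not give its version, target level or masks. Of 31099 probe sets, 57 controls were left out. Symbols came from the platform annotation; all 68 member genes matched a current RefSeq record by Entrez identifier and 0 symbols changed. The labels give no batch or pairing. Arrays differed in level, so log2(signal + 16) was quantile-normalized, filtered at the 40th percentile of the mean and given to limma 3.58.1 (R 4.3.3) as a model of stage means with a variance trend on intensity, 5.80 prior degrees of freedom and 6 residual, and Benjamini-Hochberg adjustment per comparison. The log2 scale with its constant understates differences of dim probe sets, and a quantile step removes any shift shared by all probe sets of a stage. The script was tested on simulated data.

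The rule that chose members reads the digit as needed after E2f and Mcm. A digit after every start would leave 82 probe sets, without the CDK inhibitors, cyclins C, H, I and K, and Ccndbp1. Members, lists and the naming rule were chosen with earlier results of these data known. Named were the 6 members per comparison and direction with the smallest p, the brightest of each role and, with values, other members beside them. Alternatives were constants of 1 and 64, the deposited level, median centring, no filter or the 60th percentile, other variance priors, array weights, 1 probe set per gene, a threshold of 0.1, only the 6 arrays compared, and leaving out each array. Promoter sequences are RefSeq's, build GRCr8. The number of arrays limits the precision.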

Additional observations from a re-analysis of the deposited data

How the results depend on the processing

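No paired analysis was possible because the replicate numbers differ between all 3 stages. Of 36 named differences, 30 kept their sign under every alternative that tested their probe set, and 6 turned, all at the deposited level. These were, for early minus juvenile, Cdk2ap2 to −0.04, Cdk5 to −0.05, Ccnd3 to −0.07 and E2f6 to −0.11. For late minus early they were Ccni to 0.03 and Cdkn1b to 0.05. The deposited level shifts the median of all tested probe sets by −0.24 and 0.22 in these comparisons, which turns values of this size by construction. Over all 222 member differences, 81 kept their sign under every alternative that tested their probe set, and all 20 that exceeded 0.3 in size did. Shifts of −0.24 and 0.22 could hardly turn values over 0.3. Other variance priors and the fit of 6 arrays leave every difference unchanged, so neither could turn a sign. At the deposited level limma called 10, 1 and 21 of all probe sets for early minus juvenile, late minus juvenile and late minus early, and 16 by the F test, among them 1 member (Cdk5r2) in late minus early and 1 by the F test. Array weights called 1 probe set for late minus juvenile. Leaving out single arrays gave 0 to 1 called probe sets for late minus juvenile and 0 to 1 by the F test, and 0 members throughout.

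Member counts at an unadjusted limma p under 0.05, which were 4, 2 and 3 in that order, became 11, 1 and 16 at the deposited level, where all tested probe sets had 18.4%, 2.38% and 17.2%. Without the filter they became 8, 4 and 5 of 106 members, or 7.55%, 3.77% and 4.72% (4.55%, 4.24% and 5.31% of all probe sets). The first became 1 of 47 with the filter at the 60th percentile (4.73%) and 1 of 57 with 1 probe set per gene (4.65%). The second became 9 of 74 with array weights (11.2%) and 1 of 57 with 1 probe set per gene (4.10%). The third became 5 of 74 without a trend (5.47%). Leaving out single arrays gave ranges of 1 to 5, 1 to 8 and 2 to 6, where all tested probe sets had 3.86% to 7.43%, 3.06% to 8.52% and 3.31% to 7.58%.

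Stages did not overlap for 4, 7 and 10 member probe sets (backgrounds of 8.30%, 11.4% and 11.3%). These counts became 14, 1 and 23 at the deposited level (22.2%, 5.32% and 22.8% of all tested probe sets). They became 10 and 12 of 106 without the filter for the comparisons with juvenile animals (8.50% and 10.9%). With the stricter filter the count for late minus early was 6 of 47 (11.4%). Leaving out single arrays gave 4 to 13, 7 to 22 and 10 to 21, since fewer arrays overlap less often. All tested probe sets then had 8.29% to 21.7%, 11.4% to 32.8% and 11.3% to 27.8%. The median member difference became −0.25, 0 and 0.24 at the deposited level, −0.04 and −0.01 with median centring for the comparisons with juvenile animals, and ranged over −0.03 to 0, −0.01 to 0.02 and −0.01 to 0.03 without single arrays. Low signal limits Cdk5r2, Cdkn2aip, E2f1, Mcm3, mitotic genes such as Cdk1, Ccnb2 and Plk1, and the 32 probe sets below the filter.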
